A study of Nothobranchius furzeri with 3 samples.

Results

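Immediate early and AP-1 stress genes were followed in the basal epidermis of the killifish Nothobranchius furzeri. The list of genes was drawn up with earlier results of these data known, so counts of its genes beside all genes are a description. Genes were then matched to it by name. A gene was kept if its symbol was jun, junb, jund, fosa, fosb, fosl1, fosl2, atf3, egr1 or ier2. A final a or b was allowed, as were upper and lower case. Of 22954 genes in the count table, 8 were found in this way, written JUNBA, fosaa, fosb, fosl1a, FOSL2, atf3, EGR1 and ier2b. They stood for 8 of the 10 symbols. No gene carried the symbol jun or jund, and 7487 genes had no symbol, so these Jun genes were not analysed here.

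RNA was measured by photo-isolation chemistry (PIC), in which the primers for reverse transcription are blocked until UV light frees them, so that only irradiated cells give a library. The irradiated cells were those stained for p63, a transcription factor of basal keratinocytes. The methods of the study name sections of trunk and fin, and a legend in its supplement the fin alone. There were 3 libraries of aged fish bathed in tunicamycin at 1 µg/mL, called aged (Tm), 4 of aged fish in the solvent DMSO, called aged, and 4 of young fish in DMSO, called young. The labels call the treatment a night long and the methods of the study a whole day. The labels give no transgene, age in numbers or animal for a library, and the study states ages in months for the young and aged fish of its other experiments, so the p-values measure the spread between these libraries, which may be partly technical.

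AP-1 is a transcription factor made of pairs of basic leucine zipper (bZIP) proteins, with partners from the Jun, Fos and ATF families. Many of their genes are immediate early genes: in mammals they are switched on within minutes of growth factors, wounding or stress by factors already present in the cell, without new protein synthesis. In the skin, AP-1 takes part in keratinocyte proliferation, differentiation and wound repair. Tunicamycin blocks N-glycosylation, so that proteins misfold in the endoplasmic reticulum (ER), and in mammals atf3 is a known target of the ER stress response through Atf4.

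Each value is a count of unique molecular identifiers (UMIs), tags that mark single RNA molecules, or that count per 1000000 counts of its library (CPM). Library totals were 319223 to 705538 in aged (Tm), 37655 to 265509 in aged and 35366 to 298033 in young samples, so that 1 count is worth 1.42 to 3.13 CPM in aged (Tm), 3.77 to 26.6 CPM in aged and 3.36 to 28.3 CPM in young libraries. tp63, the gene of p63, was detected in every library, at 1251 to 1673 CPM in aged (Tm), 319 to 1381 CPM in aged and 424 to 1544 CPM in young samples. The 7 basal keratinocyte genes found, tp63 among them and each with counts in every group, summed to 15693 to 21355 CPM in aged (Tm), 27818 to 34152 CPM in aged and 24346 to 60340 CPM in young libraries. The lower sum in aged (Tm) is mostly that of krt5, a basal keratin, at 6119 to 11049 CPM in aged (Tm) and 16335 to 32187 CPM in aged libraries. By gene, the median log2 fold change of the 7 in aged (Tm) against aged was 1.03, with ITGA6 (2.42) and itgb4 (2.20) called higher and ITGA6A (−1.89) lower by edgeR, at adjusted p of 0.00572, 0.0356 and 0.0486. Skeletal muscle markers (17 genes, each with counts in every group) summed to 4367 to 6791 CPM in aged (Tm), 5420 to 22998 CPM in aged and 21598 to 85704 CPM in young libraries. A list of 73 neuron, receptor and photoreceptor genes that are scarce in epidermis summed to 426 to 999 CPM in aged (Tm), 1360 to 5232 CPM in aged and 917 to 3054 CPM in young libraries, with 2, 2 and 4 of them without a count in these groups. The conditions carry separate library names and 3 of 4 sample barcodes recur in all 3 conditions, so a difference between library pools cannot be told apart from the condition.

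The 8 genes held 876 counts in all 11 libraries together. FOSL2 held 589 of them (67.2%) and atf3 170 (19.4%), and fosl1a, JUNBA and EGR1 held 57, 28 and 25. fosb held 5, and ier2b and fosaa 1 each. The summed level of the 8 genes was 992, 479 and 334.5 CPM in aged (Tm) replicates 1, 2 and 3. It was 106, 181, 136 and 194 CPM in the aged libraries and 122, 94.5, 56.6 and 70.5 CPM in the young libraries. Every aged (Tm) library therefore lay above every control, while aged and young overlapped. As these are pools of cells, fewer cells of a type and less RNA per cell cannot be told apart.

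**Figure D1:**
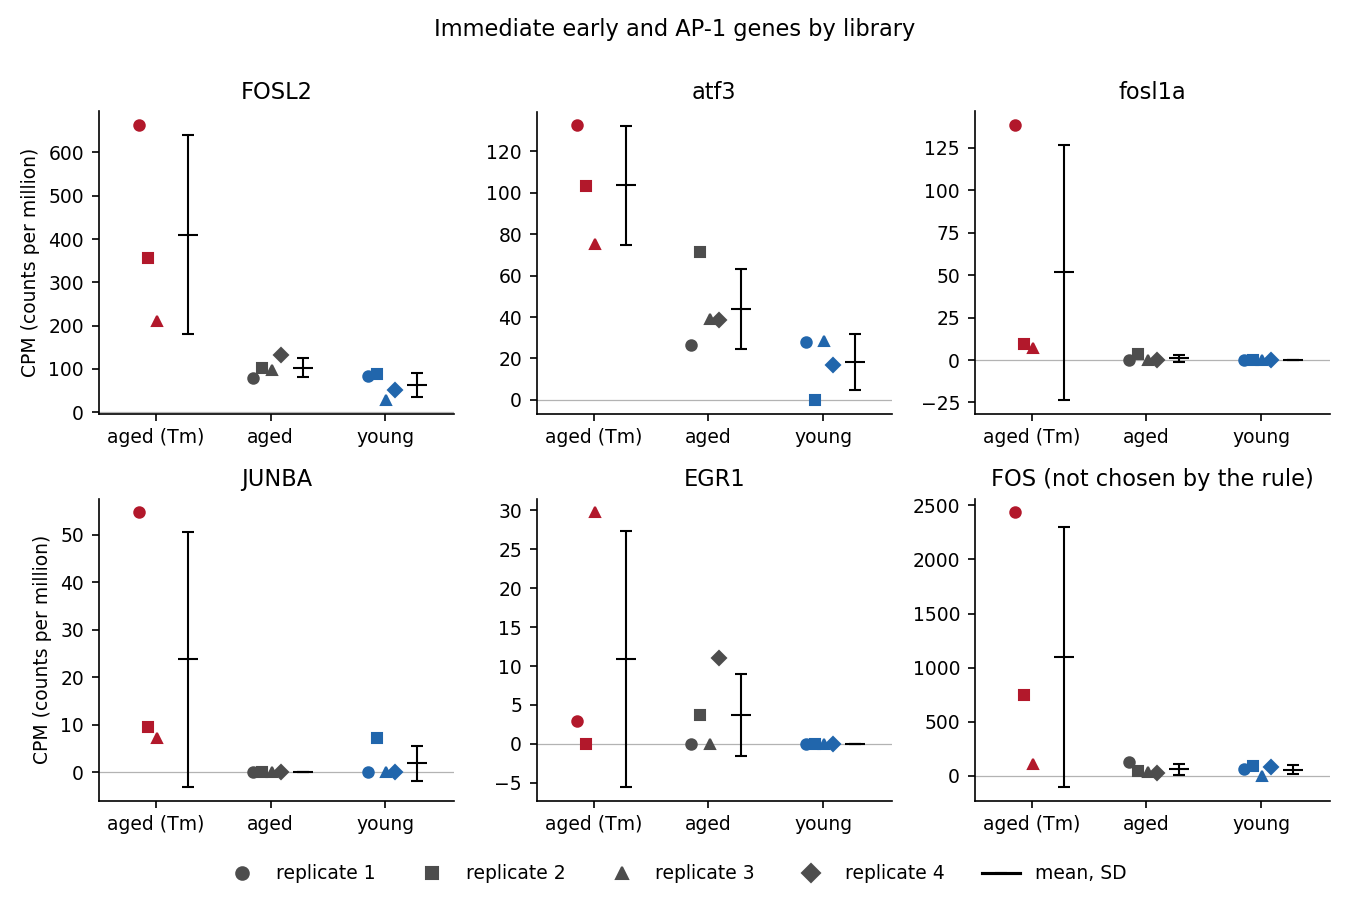
Level of FOSL2, atf3, fosl1a, JUNBA, EGR1 and FOS in CPM (vertical axis, linear, a separate scale in each panel) in each library of aged (Tm), aged and young fish. Symbols give the replicate, and bars the mean and SD, which can reach below 0. FOSL2 and atf3 lie higher in every aged (Tm) library than in any control, whereas most of fosl1a, JUNBA and FOS stands in aged (Tm) replicate 1 and most of EGR1 in replicate 3.

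Among the Fos family, FOSL2 (Fra-2, a Fos protein without the strong activation domain of Fos itself) rose in tunicamycin-treated fish against both controls. It had 230, 114 and 149 counts in aged (Tm) replicates 1 to 3, which are 663, 357 and 211 CPM. The aged libraries had 79.7, 102, 97.4 and 133 CPM, from 3, 27, 5 and 24 counts. The young libraries had 84.2, 87.2, 28.3 and 50.3 CPM, from 9, 12, 1 and 15 counts. The lowest aged (Tm) library was above the highest control, and replicate 1 of aged (Tm) was 3.14-fold above replicate 3. The means were 410 ± 231 CPM in aged (Tm), 103 ± 22.2 CPM in aged and 62.5 ± 28.3 CPM in young libraries (SD, n = 3, 4 and 4).

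The log2 fold change of FOSL2 was 2.41 ± 0.58 (SE) in aged (Tm) against aged, with a 95% interval of 1.27 to 3.55 and an adjusted p of 0.00817 (edgeR's quasi-likelihood test, Benjamini-Hochberg adjustment over all genes tested). Against young it was 3.04 ± 0.61, with an adjusted p of 0.00189 (edgeR). Scaled by library totals alone, without TMM, the change against aged was 1.69 (adjusted p = 0.0278, edgeR). The exact permutation test of the CPM gave p = 0.0286 for each comparison (two-sided), the smallest value that 3 libraries against 4 allow. FOSL2 passed the threshold of 0.1 whichever library was left out, with adjusted p of 0.00118 to 0.0567 (edgeR) in aged (Tm) against aged. With the level of the genes scarce in epidermis as a covariate, its log2 fold change was 0.57 in that comparison, with an adjusted p of 0.864 (edgeR); these genes were lower in every aged (Tm) library than in any aged library, and their part in the result was not tested further. That covariate left few calls among all genes, with 0.227% of the 3963 called higher in aged (Tm) than in aged and 1.26% higher than in young. Against young, the call was lost with this covariate (adjusted p = 0.271) and with that of muscle genes (adjusted p = 0.436, edgeR). The muscle genes were lower in every aged (Tm) library than in any young library, so that covariate could hardly be separated from the condition.

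fosl1a (Fra-1, a Fos protein that in mammals is raised in migrating and wounded keratinocytes) had 56 of its 57 counts in tunicamycin-treated fish. It had 48, 3 and 5 counts in aged (Tm) replicates 1 to 3, against 1 count in 1 of the 4 aged libraries and none in the young libraries. In CPM these are 138, 9.40 and 7.09 in aged (Tm), and 3.77 in aged replicate 2. The groups did not overlap, but replicate 1 held 85.7% of the counts of aged (Tm). Pooled over libraries, fosl1a was 21.8-fold higher in aged (Tm) than in aged (95% exact counting interval 3.76 to 878) and at least 7.86-fold higher than in young, where 0 of 577882 counts allows a level of up to 5.19 CPM. Without aged (Tm) replicate 1 the ratio to aged was 4.18 (0.56 to 185). These intervals cover counting error only.

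FOS, with the symbol of Fos itself, was not chosen by the rule, which takes fosa and fosb, and was added after its values were seen. It had 845, 239 and 79 counts in aged (Tm) replicates 1 to 3, which are 2436, 749 and 112 CPM. It had 133, 45.2, 39.0 and 27.7 CPM in aged and 65.5, 87.2, 0 and 80.5 CPM in young libraries. Replicate 3 of aged (Tm) lay below aged replicate 1, whose value rests on 5 counts, so that these groups overlapped, and the aged (Tm) libraries spanned 21.8-fold. FOS rose by 4.97 ± 0.93 (log2, SE) over aged fish (adjusted p = 0.00178, edgeR) and by 4.56 ± 0.90 over young fish (adjusted p = 0.00165, edgeR). The exact permutation test of the CPM gave p = 0.0571 against aged and p = 0.0286 against young fish. With the covariate of genes scarce in epidermis its log2 fold change over aged was 3.12 (adjusted p = 0.502, edgeR).

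The remaining Fos genes were at the limit of detection. fosb, an early partner of Jun, had 2 counts in aged (Tm), 1 in aged and 2 in young libraries. fosaa had a single count, in aged replicate 4. No fold is given for either, since no group had more than 3 counts.

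Of the Jun family, only JUNBA (JunB, which in mouse epidermis restrains growth and inflammation) could be followed. It had 19, 3 and 5 counts in aged (Tm) replicates 1 to 3, which are 54.8, 9.40 and 7.09 CPM, none in the 4 aged libraries and 1 in young replicate 2, at 7.27 CPM. All aged (Tm) libraries thus held it, with replicate 1 highest, and replicate 3 lay just under the young library that held 1 count. Pooled over libraries, JUNBA was at least 3.51-fold higher in aged (Tm) than in aged, where 0 of 534804 counts allows up to 5.61 CPM, and 11.4-fold higher than in young (95% exact counting interval 1.88 to 466). Without aged (Tm) replicate 1 these were at least 1.39-fold and 4.51-fold (0.605 to 200).

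atf3 (a bZIP factor of the ATF family, induced in mammals by ER stress and amino acid shortage) was higher in aged (Tm) than in either control. The difference was larger against young fish, which differed in age as well as treatment, than against aged fish. It had 46, 33 and 53 counts in aged (Tm) replicates 1 to 3, which are 133, 103 and 75.1 CPM. The aged libraries had 26.6, 71.6, 39.0 and 38.8 CPM, from 1, 19, 2 and 7 counts, and the young libraries 28.1, 0, 28.3 and 16.8 CPM, from 3, 0, 1 and 5 counts. The aged (Tm) libraries were closest together for this gene, at 1.77-fold in CPM from lowest to highest, a spread that TMM scaling would widen. Their lowest lay just above the highest aged library.

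The log2 fold change of atf3 was 1.38 ± 0.55 (SE) in aged (Tm) against aged (adjusted p = 0.0616, edgeR) and 3.05 ± 0.65 in aged (Tm) against young (adjusted p = 0.00315, edgeR). It passed edgeR's filter on low counts, 55.5 CPM in at least 3 libraries, only through the aged (Tm) libraries. So atf3 had to be high there, and these calls are a description. The exact permutation test of the CPM gave p = 0.0571 for aged (Tm) against aged and p = 0.0286 for aged (Tm) against young. The call against aged fish was lost without aged (Tm) replicate 1 (adjusted p = 0.194), aged (Tm) replicate 2 (0.120), aged replicate 3 (0.112) or aged replicate 4 (0.119) and with library totals alone (0.281), and its log2 fold change was −0.63 (adjusted p = 0.803, edgeR) with the genes scarce in epidermis as a covariate. The call against young fish was kept whichever library was left out, with adjusted p of 0.000502 to 0.0223 (edgeR), and lost with either covariate (0.345 for scarce genes and 0.827 for muscle genes).

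EGR1 (a zinc finger factor, among the first genes to respond to serum and injury in mammals) had 1, 0 and 21 counts in aged (Tm) replicates 1 to 3, which are 2.88, 0 and 29.8 CPM. It had 0, 1, 0 and 2 counts in aged and none in young libraries. Replicate 3 of aged (Tm) held 95.5% of the counts of its group, whereas FOSL2, fosl1a and JUNBA were highest in replicate 1, and the groups overlapped. Pooled, EGR1 was at 2.86 times the aged level (95% exact counting interval 0.859 to 14.9) and at least 3.09-fold higher than in young. Without aged (Tm) replicate 3 the treated libraries held 1 count, and no fold is given. ier2b, an immediate early gene of unsettled function, had 1 count, in aged (Tm) replicate 3.

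**Figure D2:**
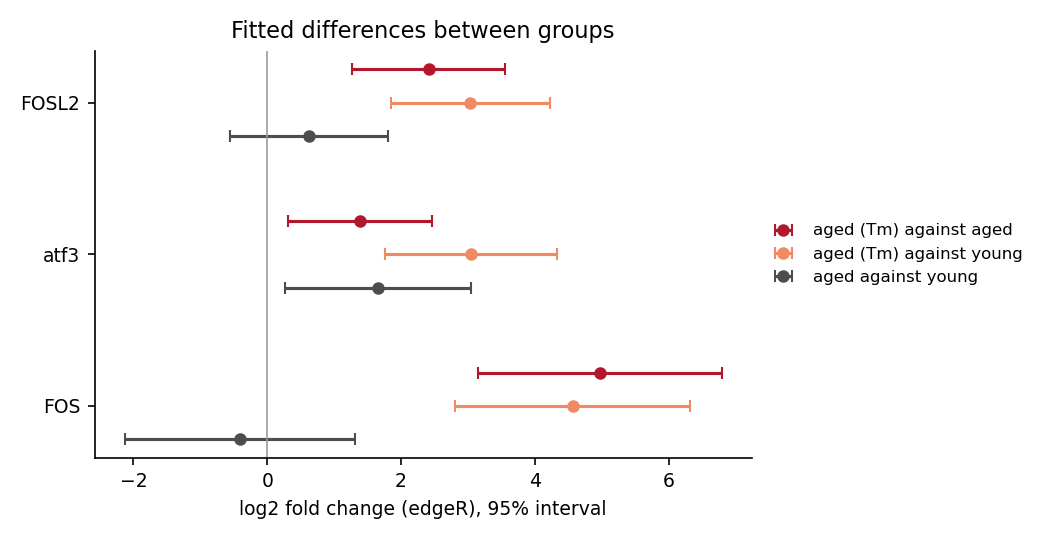
Log2 fold change from edgeR with its approximate 95% interval (horizontal axis) for FOSL2, atf3 and FOS in aged (Tm) against aged, aged (Tm) against young and aged against young. Intervals of both aged (Tm) comparisons lie above 0 for each gene, and those of aged against young reach below 0 for FOSL2 and FOS and start at 0.27 for atf3. As atf3 passed the filter on low counts only through the aged (Tm) libraries, it had to be high in them.

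Counted over the group, 2 of the 8 genes (FOSL2 and atf3) passed edgeR's filter on low counts, which asked for 55.5 CPM in at least 3 libraries. atf3 passed it through the aged (Tm) libraries, with 3 of them and 1 aged library over that level, so it had to be high there. Both were called higher in aged (Tm) than in aged, where 18.5% of the 3963 genes tested were, and in aged (Tm) than in young, where 15.9% were. In a fit without the filter, over all 22954 genes, 4 of the 8 were called higher in aged (Tm) than in aged (FOSL2, atf3, fosl1a and JUNBA), against 6.12% of all genes. There, 5 of the 8 were called higher in aged (Tm) than in young, with EGR1 as the fifth, against 4.6% of all genes. In that fit the adjusted p of fosl1a was 4.91e-06 against aged and 8.3e-07 against young, that of JUNBA 0.000535 and 0.00606, and that of EGR1 0.28 and 0.0178 (edgeR).

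These low-count calls rest on single libraries. Without aged (Tm) replicate 1, fosl1a had an adjusted p of 0.402 against aged and 0.17 against young, and JUNBA of 0.141 and 0.468 (edgeR). Without aged (Tm) replicate 3, EGR1 had an adjusted p of 0.562 against young (edgeR). Other alternatives, with no single library left out, also removed calls. Against young, fosl1a passed the threshold in 7 of 10 of them, JUNBA in 4 of 9 and EGR1 in 4 of 9. Against aged, fosl1a passed in 6 of 10 and JUNBA in 7 of 9. DESeq2 gave an adjusted p of 0.123 for fosl1a against aged. With the covariate of genes scarce in epidermis the fitted log2 fold change against aged was 0.05 for fosl1a (adjusted p of 1) and 2.92 for JUNBA (adjusted p = 0.914, edgeR), which had 0 counts in aged, so that its fitted fold depends on the prior count. With this covariate 17 of all 22954 genes were called higher in aged (Tm) than in aged, where the fit without it called 1405. By CPM alone, 4 of the 8 genes (FOSL2, atf3, fosl1a and JUNBA) were higher in every aged (Tm) library than in any aged library, as were 4.66% of all genes. Against young libraries 3 of the 8 were (FOSL2, atf3 and fosl1a), as were 4.7% of all genes. This order leans on depth, since 1 count is worth up to 26.6 CPM in aged and 1.42 to 3.13 CPM in aged (Tm) libraries. When every library was thinned once at random to 35366 counts, fosl1a had 5, 0 and 0 counts and JUNBA 5, 1 and 0 in aged (Tm) replicates 1 to 3, with 0 in every control, so that the groups overlapped. At that depth atf3 had 1, 4 and 4 counts in aged (Tm), against 1 to 3 in aged and 0 to 1 in young libraries, and FOSL2 had 28, 20 and 7, against 3 to 7 and 0 to 5. FOSL2 alone was still higher in every aged (Tm) library than in any young one.

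With age, none of these genes passed the threshold. In the edgeR fit none of the 8 was called in aged against young, where 0.707% of the genes tested were called in either direction, and none was higher in every aged library than in any young library, as were 1.39% of all genes. DESeq2 and limma voom called 0 of the 8 as well, but neither gave an adjusted p to every one of them. FOSL2 had a log2 fold change of 0.63 ± 0.60 (SE; 95% interval −0.55 to 1.81, adjusted p = 0.996, edgeR) and an exact permutation p of 0.0857. atf3 had 1.66 ± 0.71 (0.27 to 3.05, adjusted p = 0.681, edgeR), with means of 44.0 ± 19.3 CPM in aged and 18.3 ± 13.3 CPM in young libraries (SD, n = 4 each) and an exact permutation p of 0.0857. Of the 2 genes that passed the filter, atf3 alone had an unadjusted p below 0.05 (0.0279). FOS had −0.41 ± 0.88 (adjusted p = 0.996, edgeR). The 2 comparisons with aged (Tm) share its libraries and are not independent, and that with young fish differs in age as well as treatment. In all, 12 permutation tests were run on FOSL2, atf3, fosl1a, JUNBA and EGR1 and 3 on FOS, without adjustment of their p-values. A comparison was tested only where a group had more than 3 counts. This left out fosb, fosaa and ier2b, and fosl1a, JUNBA and EGR1 in aged against young. Of the 12, 6 were below 0.05, all in comparisons with aged (Tm), and the share over all genes was not computed. Each of these 6 was at 0.0286, the smallest value possible, in groups that did not overlap, an order that leans on depth.

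The 3 treated libraries differed among themselves, and not in the same way for each gene. Replicate 1 held 89.4% of the summed CPM of fosl1a, 76.9% of JUNBA, 73.9% of FOS, 53.8% of FOSL2 and 42.6% of atf3. Replicate 3 held 91.2% of EGR1. For comparison, tp63 was shared as 28.0%, 37.4% and 34.6% over replicates 1, 2 and 3, and replicate 1 was the highest of the 3 for 15.8% of the 3963 genes tested and replicate 3 for 64.2%. These shares and orders are of CPM by library totals. The TMM factors behind the tests were 0.616, 0.646 and 1.05 for aged (Tm) replicates 1, 2 and 3. TMM scaling would thus raise replicates 1 and 2 against replicate 3. With 3 libraries and no label that sets them apart, the order has no test. Markers of immune cells (9 genes, LYZ without a count in aged (Tm) and aged) summed to 579, 887 and 839 CPM in aged (Tm) replicates 1 to 3, and those of fibroblasts (10 genes, each with counts in every group) to 427, 802 and 1691 CPM, so neither was highest in replicate 1. The basal keratinocyte genes summed to 21355, 17828 and 15693 CPM, highest in replicate 1. Of these genes only epcam was highest there, at 7889, 3421 and 2108 CPM. By contrast, krt5 was highest in replicate 2 (10010, 11049 and 6119 CPM), as was tp63, and krt15 in replicate 3 (741, 1237 and 3906 CPM). Their part in the order of FOSL2, fosl1a, JUNBA and atf3 was not tested. Suprabasal keratinocyte markers (10 genes, each with counts in every group) summed to 1257, 758 and 2731 CPM.

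**Figure D3:**
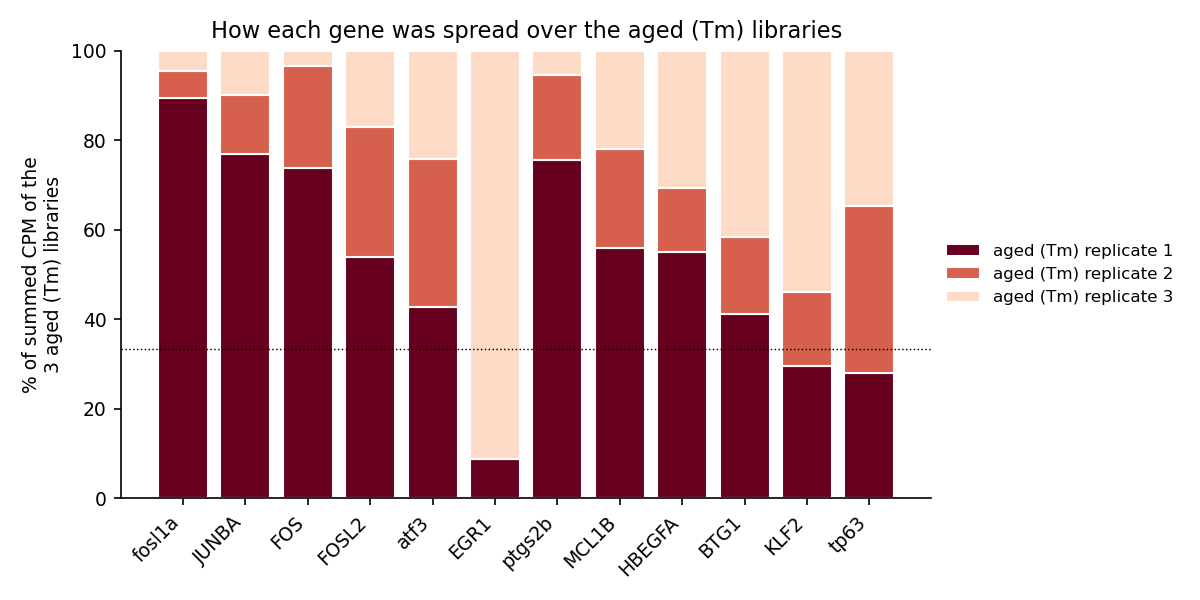
Share in percent (vertical axis) that each aged (Tm) library had in the summed CPM of the 3, for the AP-1 genes, FOS, other immediate early genes and tp63. The dotted line marks equal shares. Replicate 1 leads in fosl1a (89.4%), JUNBA (76.9%), FOS (73.9%) and ptgs2b (75.6%), and replicate 3 in EGR1 (91.2%) and KLF2 (53.8%).

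Of 53 other immediate early genes in the table, 13 passed the filter, 3 of them only through the aged (Tm) libraries. Against aged fish, 8 of the 13 rose in aged (Tm), all 3 of these among them, and none fell, where 18.5% of all genes tested rose and 20.2% fell, with a median log2 fold change of 1.58, against −0.03 over all genes tested. Against young fish, 6 rose, the same 3 among them, and 1 fell (HOMER1, a scaffold protein of synapses), where 15.9% of all genes tested rose and 13.2% fell, with a median of 0.99, against −0.10 over all genes. Between aged and young none was called by edgeR, DESeq2 or limma voom, 1 had an unadjusted p below 0.05, and the median was −0.38. The 3 genes that passed only through aged (Tm) were ptgs2b, HBEGFA and KLF9, which had to be high there. The summed level of the 53 genes was 7275, 2879 and 5247 CPM in aged (Tm) replicates 1 to 3, against 2045 to 2631 CPM in aged and 2124 to 3469 CPM in young libraries, so that replicate 2 lay within the range of the young libraries. Against aged, 4 of the 13 were called higher and 1 lower with upper quartile normalization. There, 10.6% of all genes tested rose and 30.9% fell. Without aged (Tm) replicate 1, 4 of 15 were called higher, as were 10.9% of all genes tested. With the covariate of genes scarce in epidermis none of 13 was called, where the median was 1.46 and 0.227% of all genes were called higher. Against young, 2 of 15 were called higher without aged (Tm) replicate 1, as were 7.96% of all genes tested. With either covariate 1 of 13 was called higher. Of all genes, 1.26% were called higher with that of scarce genes and 0.883% with that of muscle genes. The median of the 13 against young was 0.97 with the covariate of scarce genes and 0.02 with that of muscle genes.

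ptgs2b (a cyclooxygenase-2, which makes prostaglandins) was, like FOS, highest in replicate 1 and lowest in replicate 3 of aged (Tm). It had 1320, 332 and 93.5 CPM in aged (Tm) replicates 1 to 3, against 27.7 to 58.5 CPM in aged and 0 to 43.6 CPM in young libraries. Its log2 fold change was 4.43 ± 0.81 (SE) against aged (adjusted p = 0.00151, edgeR) and 4.77 ± 0.82 against young (adjusted p = 0.000572, edgeR). As ptgs2b passed the filter only through the aged (Tm) libraries, it had to be high in them, and its call and its order among the libraries are a description. MCL1B, a relative of the survival protein MCL1, had 2110, 836 and 831 CPM in aged (Tm) replicates 1 to 3, against 245 to 409 CPM in aged and 243 to 509 CPM in young libraries, and rose against both (2.47 ± 0.64 and 2.09 ± 0.64, adjusted p = 0.0123 and 0.0257, edgeR).

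By CPM, BTG1, an inhibitor of proliferation in mammals, was nearly equal in replicates 1 and 3. KLF2, a zinc finger factor, was highest in replicate 3. TMM scaling would raise replicate 1 against replicate 3 for both genes. BTG1 had 1043, 435 and 1050 CPM in aged (Tm) replicates 1 to 3. The aged libraries had 26.6 to 249.6 CPM and the young libraries 56.6 to 376 CPM. BTG1 rose by 2.74 ± 0.70 (log2, SE) against aged (adjusted p = 0.0107, edgeR). KLF2 had 380.5, 213 and 692 CPM, against 53.1 to 244 CPM in aged and 168 to 386 CPM in young libraries. Replicate 2 lay inside the aged range, and replicates 1 and 2 inside the young range. Its log2 fold change against aged was 1.97 ± 0.58 (adjusted p = 0.0198, edgeR). HBEGFA, a ligand of the EGF receptor shed by wounded keratinocytes in mammals, had 109.5, 28.2 and 60.9 CPM. The aged libraries had 0 to 26.6 CPM and the young libraries 0 to 56.6 CPM, so that replicate 2 lay inside the young range. Its log2 fold change against aged was 2.28 ± 0.75 (adjusted p = 0.032, edgeR). HBEGFA was tested only because 2 aged (Tm) libraries, with 1 young, were over the filter's level. Against young fish, MAFF, a small Maf protein, rose by 1.90 ± 0.53 and KLF9, a zinc finger factor, by 2.51 ± 0.63 (log2, SE; edgeR, adjusted p = 0.0163 and 0.00876). KLF9 was likewise tested only through its aged (Tm) libraries, 2 of which and 1 aged library were over that level. It had 83.6, 25.1 and 116 CPM in aged (Tm) replicates 1 to 3. The young libraries had 0 to 29.1 CPM and the aged libraries 18.8 to 77.9 CPM, so that replicate 2 lay inside both ranges.

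**Figure D4:**
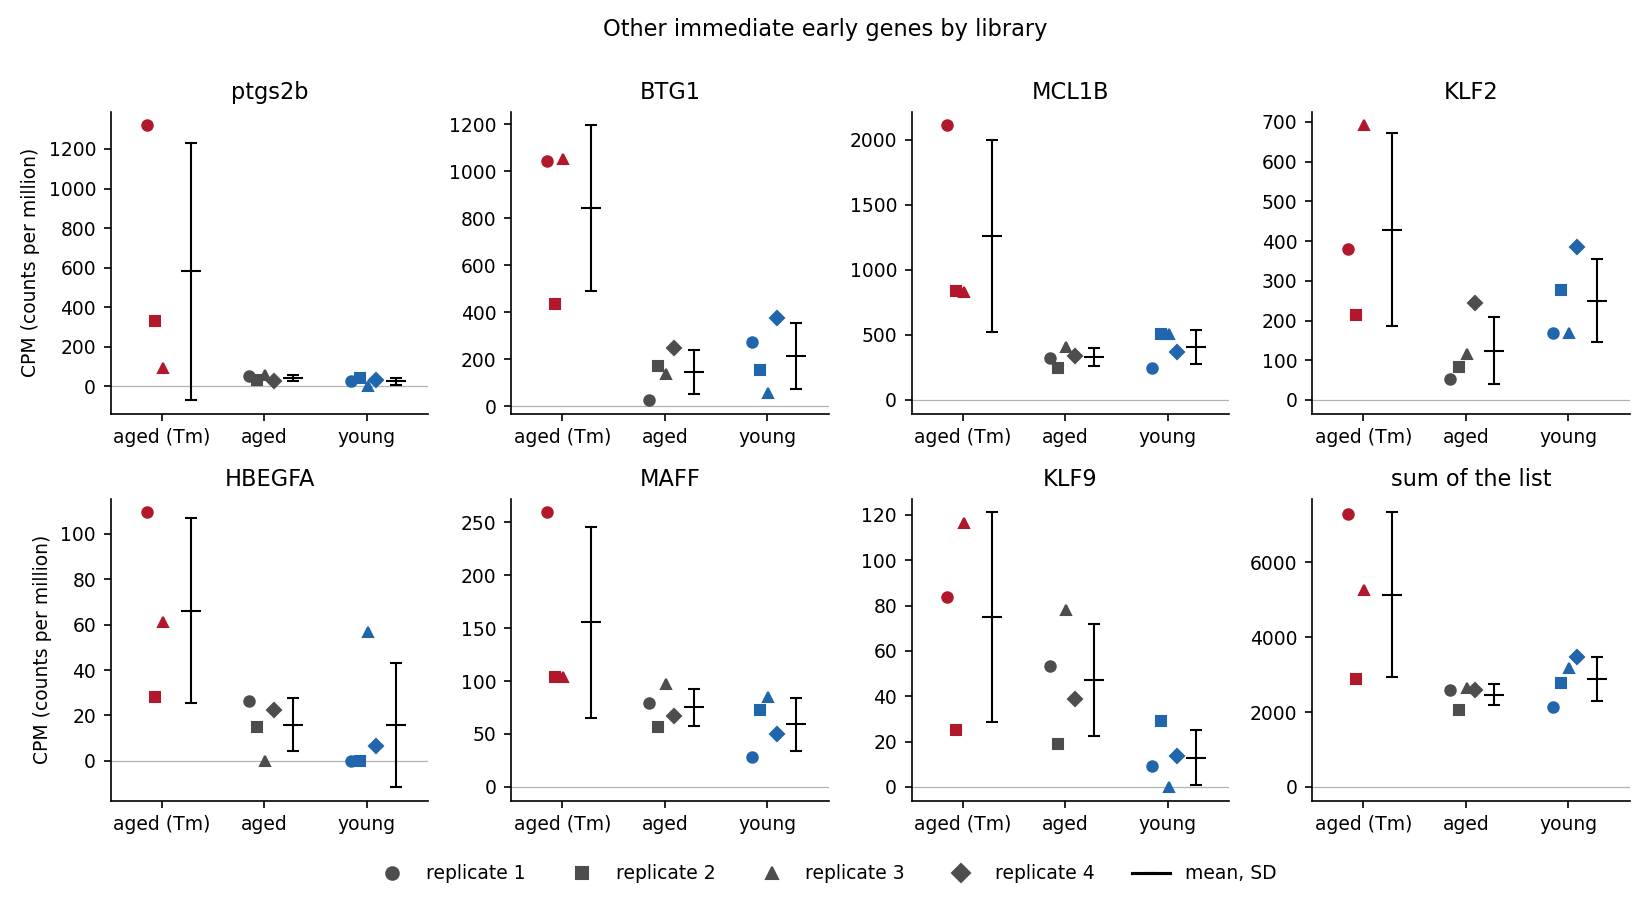
Level in CPM (vertical axis, linear, a separate scale in each panel) of 7 other immediate early genes and of the sum of all 53, in each library of aged (Tm), aged and young fish. Symbols give the replicate, and bars the mean and SD, which can reach below 0. ptgs2b and MCL1B are highest in aged (Tm) replicate 1 and KLF2 in replicate 3, and BTG1 is nearly equal in replicates 1 and 3.

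Other bZIP genes of the ATF, CREB, Maf and CNC families did not move one way. Of 40 in the table, 6 passed the filter. Against aged fish 2 rose and 2 fell in aged (Tm), with a median log2 fold change of 0.05, where 18.5% of all genes tested rose and 20.2% fell. Against young fish 1 rose and 1 fell, where 15.9% of all genes tested rose and 13.2% fell. With the covariate of scarce genes none of the 6 was called in either comparison. None was called between aged and young, by edgeR, DESeq2 or limma voom, and 0 had an unadjusted p below 0.05. ATF4B2, an Atf4 gene, the factor upstream of atf3 in mammals, had 723.5, 968 and 391 CPM in aged (Tm) replicates 1 to 3, against 53.1 to 155 CPM in aged and 158 to 182 CPM in young libraries, with no overlap. It rose by 3.17 ± 0.62 (log2, SE) over aged (adjusted p = 0.00225, edgeR) and by 2.42 ± 0.60 against young (adjusted p = 0.00828, edgeR). Its highest treated library was replicate 2, unlike FOSL2 and atf3. mafk, a small Maf gene that pairs with CNC proteins, had 11.5, 18.8 and 35.4 CPM in aged (Tm), against 77.6 to 292 CPM in aged libraries, and fell by 2.37 ± 0.53 on the log2 scale (adjusted p = 0.0053, edgeR). NFE2 rose by 1.30 ± 0.52 (adjusted p = 0.0646, edgeR), and atf7b, with 0, 0 and 8 counts in aged (Tm) and 4, 3, 5 and 2 in aged libraries, fell by 2.54 ± 1.05 (adjusted p = 0.0718, edgeR).

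The MAP kinase cascade carries signals that switch on immediate early genes. Most genes listed for it and for its phosphatases were not called. Of 54 listed, 13 passed the filter. Against aged fish edgeR called 0, with 1 at an unadjusted p below 0.05, where 18.5% of all genes tested rose and 20.2% fell. DESeq2, which fitted all 54 but can leave low-count genes without an adjusted p, called 1 higher and 1 lower. It called 6.59% of all genes higher and 3.37% lower. By limma voom 1 was called lower, as were 20.5% of all genes tested. With edgeR 4 of the 13 were called lower under upper quartile normalization, where 30.9% of all genes tested were. Under library totals alone 2 were, where 25.9% of all genes tested were. Between aged and young, 0 were called by any of these tools and 0 had an unadjusted p below 0.05. Against young fish, mrtfab (a coactivator of serum response factor) rose by 1.55 ± 0.52 (log2, SE) in aged (Tm) and mapk8ip3 (a scaffold of the Jun kinase cascade) fell by 1.37 ± 0.58 (adjusted p = 0.0397 and 0.0954, edgeR). In that comparison 15.9% of all genes tested rose and 13.2% fell.

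Of 29 heat shock genes, another early stress group, 12 passed the filter. Against aged fish 5 rose and 1 fell in aged (Tm), with a median log2 fold change of 1.1, where 18.5% of all genes tested rose and 20.2% fell. Against young fish 4 rose and 2 fell, where 15.9% of all genes tested rose and 13.2% fell. The summed level of the 29 genes overlapped between the groups. It was 13030 to 21900 CPM in aged (Tm), 12854 to 21584 CPM in aged and 15455 to 21811 CPM in young libraries. The median against aged was 0.45 with library totals alone, and with the covariate of scarce genes it was 0.30 and none of the 12 was called. None was called between aged and young by edgeR, DESeq2 or limma voom, and 2 had an unadjusted p below 0.05. hspa4b (an Hsp110 chaperone) rose by 2.36 ± 0.54 (SE), HSP90AA1.2 (an Hsp90) by 2.17 ± 0.54, DNAJA2 (an Hsp70 cochaperone) by 2.21 ± 0.60 and STIP1 (which links Hsp70 and Hsp90) by 1.72 ± 0.49 against aged, with adjusted p of 0.00624 to 0.018 (edgeR). HSPB1, a small heat shock protein, went the other way, with 49.0, 68.9 and 87.9 CPM in aged (Tm), against 437 to 1992 CPM in aged and 1160 to 4185 CPM in young libraries. Its log2 fold change was −3.39 ± 0.77 (SE) against aged and −4.91 ± 0.83 against young (adjusted p = 0.00593 and 0.000541, edgeR). BAG3, a cochaperone, fell by 1.41 ± 0.50 against young (adjusted p = 0.0507, edgeR).

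The pattern of FOSL2, the member with most counts, was compared with that of the 3962 other genes tested, by Pearson's r of log2 CPM over the 11 libraries, as a description. The 5 genes most like it were ptgs2b (r = 0.953), OLA.5669 (0.952), CHAC1 (0.949), the unnamed ENSNFUG00015007820 (0.944) and ABHD4 (0.943). In control libraries OLA.5669 had at most 44.4 CPM and ABHD4 at most 55.5 CPM. Like ptgs2b, both passed the filter only through the aged (Tm) libraries. They had to be high there, so their likeness to FOSL2 was partly set by the filter. FOS was the 52nd (0.901) and atf3 the 367th (0.786). The rank correlation (Spearman's rho) ordered them otherwise, with 0.618 for FOS and 0.855 for atf3, and 0.755 for ptgs2b and 0.982 for ABHD4. CHAC1, which degrades glutathione and is a target of Atf4 in mammals, had 4793, 5943 and 1341 CPM in aged (Tm) replicates 1 to 3, against 106 to 316 CPM in aged and 84.8 to 290.1 CPM in young libraries. These are shares of 39.7%, 49.2% and 11.1% over the treated replicates. Another gene with the symbol CHAC1, not among those listed, had shares of 19.1%, 62.2% and 18.8%. The points share library depth and the step between treated and control libraries, so the r values rest largely on the 3 treated libraries.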

How the data were processed

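PIC gave UMI counts of genes for 3 aged (Tm), 4 aged and 4 young libraries. The deposited values are whole counts without normalization, which the authors made by separating barcodes with UMI-tools 1.0.0, mapping with HISAT2 2.1.0 and assigning to genes (featureCounts 1.6.4, per the submitters' processing notes, which also list DESeq2 1.20.0). The genome build is not given in the sources used here. Reads shared between related genes, such as the Fos paralogs, cannot be told apart from the table. The genes and lists were chosen with earlier results of these data known.

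Counts were tested with edgeR 4.0.16 in R 4.3.3 (quasi-likelihood, TMM, filterByExpr by group, all 11 libraries, adjusted p threshold of 0.1). Genes under the filter were read from the same fit without it. The SE of a log2 fold change was derived from its size and the F statistic of the test. The 95% intervals were built from this SE with a normal quantile, so they are approximate and can be too narrow. Low genes are given as ratios of pooled counts with exact 95.0% intervals, or as bounds against a floor of 3 counts over the group. CPM means were compared with two-sided exact permutation tests on the difference of means. The edgeR fit was checked on simulated counts with the same spread for every gene and changes only among genes that passed the filter. The permutation test was checked on random normal values. These checks do not cover low-count calls or treated libraries as unlike as those found here. Alternatives were other normalizations and filters, DESeq2 1.42.0, limma voom (limma 3.58.1), thinning to 35366 counts, other thresholds, a replicate block, covariates for muscle genes and genes scarce in epidermis, and leaving out each library. All genes found by the rule were named, and from the other lists at most 5 genes past the threshold with the smallest p in each comparison; HOMER1 and FOS were named after their values were seen. Plots were made in Python 3.11.15 with matplotlib 3.10.9.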

Additional observations from a re-analysis of the deposited data

Results flagged for a closer look

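In groups of 4 libraries, a library was looked at again when its gap to the nearest other library took nearly the whole range of the group. Of 12 groups with any variation, 5 met this. In 4 of them a single count stood against 3 libraries at 0, which always meets it, so that these 4 show only that the gene is rare: fosl1a in aged replicate 2 (3.77 CPM), JUNBA in young replicate 2 (7.27 CPM), and fosb and fosaa in aged replicate 4 (5.55 CPM each). The fifth was FOS in aged replicate 1, at 132.8 CPM from 5 counts in the shallowest aged library, with 27.7 to 45.2 CPM in the other aged libraries. Chance alone gives about 1 in 20 groups of continuous values.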

How the results depend on the processing

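In aged (Tm) against aged, 2 of the 8 genes were called, and 1 at a threshold of 0.05, with library totals alone, with upper quartile scaling, with the replicate block and with the muscle covariate, 0 with the covariate of genes scarce in epidermis and 0 after thinning, where both fell under the filter, and 4 without the filter. Leaving out each library gave 1 to 2, with 1 without aged (Tm) replicate 1 or 2 or aged replicate 3 or 4. In aged (Tm) against young the 2 calls became 0 with either covariate and after thinning and 5 without the filter, and stayed 2 whichever library was left out. In aged against young the count was 0 in every alternative. The covariates also left fewer calls over all 3963 genes: with that of scarce genes 9 higher and 25 lower in aged (Tm) against aged, from 733 and 801, and 50 and 127 against young, from 632 and 523, and with that of muscle genes 388 and 364 against aged and 35 and 278 against young. Upper quartile and total count normalization moved the median of all genes in aged (Tm) against aged to −0.52 and −0.58 on the log2 scale, and the calls over all genes to 420 higher and 1225 lower and to 370 and 1025.

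Directions that turned round were those of fosl1a in aged (Tm) against young (−3.98, adjusted p of 1) and of FOSL2 in aged against young (−0.25) with the muscle covariate, of atf3 in aged (Tm) against aged (−0.63) with the covariate of scarce genes, and of EGR1 without aged (Tm) replicate 3 (log2 fold changes of −0.62 to 2.76 over the libraries left out, and differences of −2.27 to 12.6 CPM). The FOS difference between aged and young, 2.86 CPM, was −21.2 after thinning and −8.80 with TMM library sizes, and −21.0 to 14.0 with libraries left out. The cause was not tested. Muscle markers summed to 4367 to 6791 CPM in aged (Tm) and 21598 to 85704 CPM in young libraries, without overlap. As fosl1a also had no count in young libraries, its reversed fold is an extrapolation and no bound. Leaving out libraries leaves too few splits for the permutation tests with aged (Tm) to go below 0.05.

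The replicate numbers did not pair the libraries: of 10 pairs with the same number 5 correlated over 0.1 (−0.51 to 0.38), and 2 of 11 libraries matched their own number best. With the replicate block atf3 in aged (Tm) against aged had an adjusted p of 0.107 (edgeR). Low depth limits every value: even FOSL2 had 1 to 27 counts in the control libraries.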
